A study of Homo sapiens with 72 samples.

Results

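The 9 genes described here, ID1, ID2, ID3, ID4, SMAD6, SMAD7, SKIL, BAMBI and TGIF1, are direct response genes of TGF-beta and bone morphogenetic protein (BMP) signalling. They were taken by symbol, and all 9 were found among the 60371 Ensembl genes of the deposited files. They were followed by population RNA-seq in 72 wells of U2OS, an osteosarcoma and thus bone-derived cell line grown in serum, after 12 h of treatment. There were 18 wells with DMSO, the vehicle, and 3 wells for each of 6 compounds at 100 nM, 1000 nM and 10000 nM. The compounds were triptolide, which blocks transcription initiation by RNA polymerase II, homoharringtonine, which blocks translation elongation, nilotinib, an inhibitor of the ABL kinase, pyrazolanthrone, an inhibitor of JNK kinases, MK-2206, an allosteric inhibitor of AKT, and miglitol, an inhibitor of alpha-glucosidases. The protocols name no added TGF-beta or BMP ligand in any group, so the levels are those of the line in its serum medium and of 1 cell line alone.

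TGF-beta and BMP ligands bind pairs of receptor kinases at the cell surface. TGF-beta receptors mainly phosphorylate SMAD2 and SMAD3, BMP receptors SMAD1, SMAD5 and SMAD9, and each set enters the nucleus with SMAD4. ID1 to ID4 are classical BMP targets: their proteins lack a DNA-binding region and hold E proteins such as TCF3 off the DNA, which in bone precursor cells delays differentiation. SMAD6, SMAD7, SKIL, BAMBI and TGIF1 act as negative feedback. SMAD6 and SMAD7 occupy the receptors, SMAD6 mainly those for BMP, BAMBI is a receptor decoy without kinase activity, and SKIL and TGIF1 are corepressors that bind SMAD complexes.

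Defining genes of bone cells were present in the DMSO wells only in part. The matrix genes SPARC and COL1A1 had mean TPM values, a level scaled to transcript length and library, of 2144 and 456. RUNX2, the transcription factor of the osteoblast lineage, reached a mean of 3.91 TPM, while the later osteoblast genes SP7 and BGLAP were at 0.0122 and 0.461 TPM. Markers of other cell types were at 2.35 TPM for EPCAM and at 0.442 TPM or lower for CDH1, PTPRC, PECAM1, CDH5 and ALB. The libraries held between 0.0708 and 68.3 M expected counts (M for mega) with a median of 38.4 M. Of the 72 libraries, 3 were under 10 M: triptolide 100 nM replicate 2 with 70767 counts, DMSO replicate 10 with 460014 and triptolide 1000 nM replicate 1 with 9628355. In the smallest, 3 counts correspond to 36.1 CPM (counts per M counts after TMM scaling), so its value of 0 sets a limit under the DMSO range for ID3 but not for ID4 or SMAD6. Its values for SMAD7, SKIL and TGIF1 rest on 1, 1 and 2 counts, and 36.1 CPM is not under their DMSO ranges either. At 100 nM triptolide, leaving these libraries out changed no call of a member.

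The starts of 4 of the genes are shown because ID1, ID3 and ID4 fell together with triptolide and parted with homoharringtonine, and because SMAD6 fell furthest of the 9 with homoharringtonine. Each sequence is the 150 bases before the RefSeq start on GRCh38.p14, 5′ to 3′ on the strand of the gene. ID1 lies at chr20:31605139-31605288 (plus strand), ID3 at chr1:23559502-23559651 (minus strand), ID4 at chr6:19837220-19837369 (plus strand) and SMAD6 at chr15:66702086-66702235 (plus strand). Capitals mark matches to any of GTCTAGAC, the palindrome that SMAD3 and SMAD4 bind, CAGAC, a shorter SMAD-binding sequence, GGCGCC and TATAA, searched on both strands.
ID1: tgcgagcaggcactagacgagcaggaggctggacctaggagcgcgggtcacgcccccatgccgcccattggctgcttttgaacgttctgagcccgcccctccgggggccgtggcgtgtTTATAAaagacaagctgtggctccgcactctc
ID3: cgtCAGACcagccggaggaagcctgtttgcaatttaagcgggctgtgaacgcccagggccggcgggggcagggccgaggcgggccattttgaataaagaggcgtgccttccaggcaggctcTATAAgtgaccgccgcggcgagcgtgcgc
ID4: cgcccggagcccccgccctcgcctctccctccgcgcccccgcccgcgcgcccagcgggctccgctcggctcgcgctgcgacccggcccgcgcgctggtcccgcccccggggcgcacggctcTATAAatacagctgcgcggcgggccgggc
SMAD6: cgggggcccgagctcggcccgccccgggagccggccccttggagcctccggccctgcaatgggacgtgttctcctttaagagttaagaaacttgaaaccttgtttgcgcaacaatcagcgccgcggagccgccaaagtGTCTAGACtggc

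ID1, ID3 and ID4 each held TATAA close to the start, beginning 31, 29 and 29 bases before it, and SMAD6 held no TATAA. In ID1 the reverse complement, TTATA, begins 32 bases before the start. SMAD6 held GTCTAGAC, which begins 12 bases before its start and which was present in the 250 bases before the start of 0.182% of the 35116 RefSeq starts in the table. The same windows held CAGAC in 38.0%, GGCGCC in 16.4% and TATAA in 18.9%. Of the members not shown, SKIL and BAMBI held CAGAC and GGCGCC in these 250 bases, and ID2 held none of the searched letters. Some starts of SMAD7 and TGIF1 held CAGAC or TATAA, and ID4 held CAGAC before the bases shown. GTCTAGAC was found at no member other than SMAD6. GTCTAGAC contains GTCTA but neither CAGAC nor GTCTG, so a match to one is no match to the other. These letters were chosen after the sequences were seen, and a match is a description of the letters and not a measured binding site. The other members lie on chromosome 2 (ID2), chromosome 3 (SKIL), chromosome 10 (BAMBI) and chromosome 18 (SMAD7 and TGIF1, the 2 of which have 3 and 7 RefSeq starts).

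In the DMSO wells the members differed widely in level. ID1, at 301 ± 51.0 TPM (SD, n = 18), and ID3, at 167 ± 23.9 TPM, were the most abundant, and TGIF1 followed at 67.8 ± 6.16 TPM. In all 18 wells ID1 was above ID3, ID3 above TGIF1 and TGIF1 above SKIL. SKIL, at 31.1 ± 11.7 TPM, was above ID2, at 25.5 ± 13.2 TPM, in 12 of 18 wells only, so that their order is not set beyond the spread. SMAD7, at 18.97 ± 3.38 TPM, was below ID2 in 17 of 18 wells and above SMAD6 in all 18. SMAD6, at 5.76 ± 1.54 TPM, and BAMBI, at 5.59 ± 0.538 TPM, could not be ordered, with SMAD6 higher in 10 of 18 wells. ID4 was lowest at 3.85 ± 1.74 TPM and was below BAMBI in 16 of 18 wells. The highest ID2 value, 75.8 TPM, and the highest ID4 value, 9.41 TPM, both came from DMSO replicate 10, the library of 460014 counts.

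Triptolide lowered all 9 members at 1000 nM and again at 10000 nM. Here and below, a gene is counted as raised or lowered where edgeR gave an adjusted p under 0.05 together with a log2(Fold Change) past 1 in size, against 30.4% and 30.2% of all genes tested that were lowered at these 2 doses. None of the 9 was counted as raised, against 13.9% and 16.2% of all genes. At 100 nM, 3 of 9 were lowered (ID1, ID3 and SMAD6) against 20.9% of all genes, and none was raised against 11.4%. Without the libraries under 10 M these 3 were at -1.20 for ID1, -1.33 for ID3 and -1.54 for SMAD6, with adjusted p of 6.2e-05, 1.2e-05 and 3.5e-05. With mitochondrial scaling, which moved the median of all genes at this dose by -1.65, ID4 (-2.18), SMAD7 (-2.29), SKIL (-2.53), BAMBI (-2.29) and TGIF1 (-1.85) were lowered at 100 nM as well. The median log2(Fold Change) of the members was -0.60 at 100 nM, -4.72 at 1000 nM and -4.50 at 10000 nM, beside medians of -0.16, -0.21 and -0.17 over all genes tested. In bulk RNA, fewer cells of a type and less RNA per cell cannot be told apart, and when libraries were scaled to the 13 mitochondrial mRNAs, the median of all genes moved by between -1.65 and -2.75 with triptolide.

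BAMBI, the receptor decoy, had the lowest log2(Fold Change) of the 9 at 1000 nM (-8.27) and 10000 nM (-7.85), on very few counts. Its level in the DMSO wells ran from 5.03 CPM over a median of 6.53 to 7.80 CPM. At 1000 nM triptolide it was 0, 0.116 and 0 CPM, which was 1 count in all 3 libraries, and at 10000 nM it was 0, 0.0363 and 0.0396 CPM, 2 counts in all. The pooled ratio to DMSO was 0.268% at 1000 nM with an exact 95% Poisson interval from 0.00680% to 1.496%, and 0.396% at 10000 nM with an interval from 0.0479% to 1.43%. These intervals cover counting error only. That at 1000 nM overlaps the interval of ID4 at this dose, from 0.487% to 4.57%, so BAMBI and ID4 are not ordered there. At 100 nM the wells were at 4.37, 12.1 and 3.86 CPM, the middle one being a single count in the smallest library. BAMBI passed the test there with a log2(Fold Change) of -0.60 ± 0.18 (SE, adjusted p = 0.0070), which was -0.63 without the libraries under 10 M.

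The 4 ID genes reached levels of a few percent of DMSO. ID1 had a DMSO range from 123 over a median of 170 to 233 CPM. It was at 73.4, 24.1 and 73.5 CPM at 100 nM, at 3.73, 3.72 and 4.73 CPM at 1000 nM, and at 4.23, 3.45 and 3.64 CPM at 10000 nM. No triptolide well overlapped the DMSO range, and the 2 higher doses overlapped each other. The log2(Fold Change) was -1.28 ± 0.21 (adjusted p = 1.4e-05), -5.37 ± 0.25 (2.1e-15) and -5.55 ± 0.25 (5.3e-16). ID3 ran from 70.4 over a median of 96.9 to 129 CPM with DMSO. Its wells were at 38.7, 0 and 36.5 CPM at 100 nM, at 5.41, 3.02 and 3.13 CPM at 1000 nM and at 2.93, 2.65 and 2.41 CPM at 10000 nM. All 9 wells lay under the DMSO range, and log2(Fold Change) was -1.41 ± 0.22 (7.7e-06), -4.72 ± 0.25 (3.2e-14) and -5.22 ± 0.23 (6.1e-16).

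ID2 took another course at the lowest dose. The DMSO wells ran from 6.19 over a median of 8.53 to 29.8 CPM, and the triptolide wells at 100 nM were at 14.8, 36.1 and 16.7 CPM. The 36.1 CPM stood for 3 counts in the smallest library, and the 29.8 CPM came from DMSO replicate 10. Without the libraries under 10 M the log2(Fold Change) was 0.91 (adjusted p = 6.5e-05), beside 0.92 ± 0.25 (0.0033) with them, so ID2 rose at 100 nM and stayed short of the fold threshold. With mitochondrial scaling its value became -0.76 (adjusted p = 0.10), beside the shift of -1.65 in the median of all genes, and with library size alone it was 0.59 (0.073). At 1000 nM the wells were at 0, 0.582 and 0.219 CPM and at 10000 nM at 0.119, 0.182 and 0.119 CPM, all under the DMSO range. There ID2 fell by 5.14 ± 0.46 (4.8e-10) and 5.97 ± 0.40 (1.6e-12) on the log2 scale.

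ID4, the least abundant ID gene, ran from 2.84 over 3.81 to 12.3 CPM with DMSO. At 100 nM triptolide its wells were at 2.52, 0 and 3.64 CPM, with a log2(Fold Change) of -0.43 ± 0.30 that did not pass the test (adjusted p = 0.23). At 1000 nM the wells held 4 counts in all, or 1.79% of the DMSO level with an exact 95% Poisson interval from 0.487% to 4.57%. At 10000 nM they were at 0.316, 0.0726 and 0.158 CPM, under every DMSO well, with a log2(Fold Change) of -4.50 ± 0.40 (2.6e-10).

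At 1000 nM and 10000 nM SMAD7 and TGIF1 had log2 values close to each other, and SMAD6 and SKIL had the values nearest to DMSO. At 100 nM SMAD6 had the lowest of the 9. SMAD7 ran from 19.1 over 24.3 to 31.8 CPM with DMSO. It was at 18.03, 12.1 and 15.1 CPM at 100 nM (log2(Fold Change) -0.57 ± 0.18, adjusted p = 0.0081), at 0.644, 1.16 and 1.07 CPM at 1000 nM (-4.64 ± 0.23, 9.0e-15) and at 1.90, 1.05 and 0.950 CPM at 10000 nM (-4.29 ± 0.23, 2.2e-14). TGIF1 ran from 32.5 over 40.0 to 46.5 CPM with DMSO. It was at 43.1, 24.1 and 26.4 CPM at 100 nM, where wells fell on both sides of the lowest DMSO well and the difference did not pass the test (-0.18 ± 0.14, adjusted p = 0.80). At 1000 nM it was at 2.19, 1.98 and 2.36 CPM (-4.17 ± 0.16, 5.5e-17), and at 10000 nM at 2.33, 1.85 and 2.22 CPM (-4.25 ± 0.15, 8.4e-18).

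SMAD6, with DMSO wells from 9.43 over 14.1 to 22.8 CPM, was at 4.93, 0 and 4.30 CPM at 100 nM triptolide. It was at 3.604, 5.12 and 3.35 CPM at 1000 nM and at 4.19, 3.23 and 4.35 CPM at 10000 nM. All 9 wells were under every DMSO well, but the 0 came from the smallest library and sets no limit for SMAD6. The 3 doses overlapped, with log2(Fold Change) values of -1.59 ± 0.28 (adjusted p = 2.8e-05), -1.82 ± 0.25 (5.1e-07) and -1.87 ± 0.23 (7.9e-08). SKIL ran from 30.9 over 47.7 to 86.6 CPM with DMSO. It was at 26.2, 12.1 and 27.8 CPM at 100 nM (-0.91 ± 0.29, 0.010), at 12.5, 15.5 and 22.1 CPM at 1000 nM (-1.57 ± 0.28, 2.0e-05) and at 11.4, 14.1 and 9.50 CPM at 10000 nM (-2.14 ± 0.28, 2.3e-07). No SKIL well with triptolide reached the DMSO range, but the 12.1 CPM stood for 1 count in the smallest library. The level of 3 counts there, 36.1 CPM, lies within the DMSO range, so that well shows no separation. The calls at 100 nM rest on few wells: without replicate 1 or 3 the value of SKIL was -0.86 (adjusted p = 0.086) or -0.95 (0.056) and that of BAMBI -0.62 (0.059) or -0.48 (0.10), and without replicate 3 that of SMAD7 was -0.45 (0.13).

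**Figure D1:**
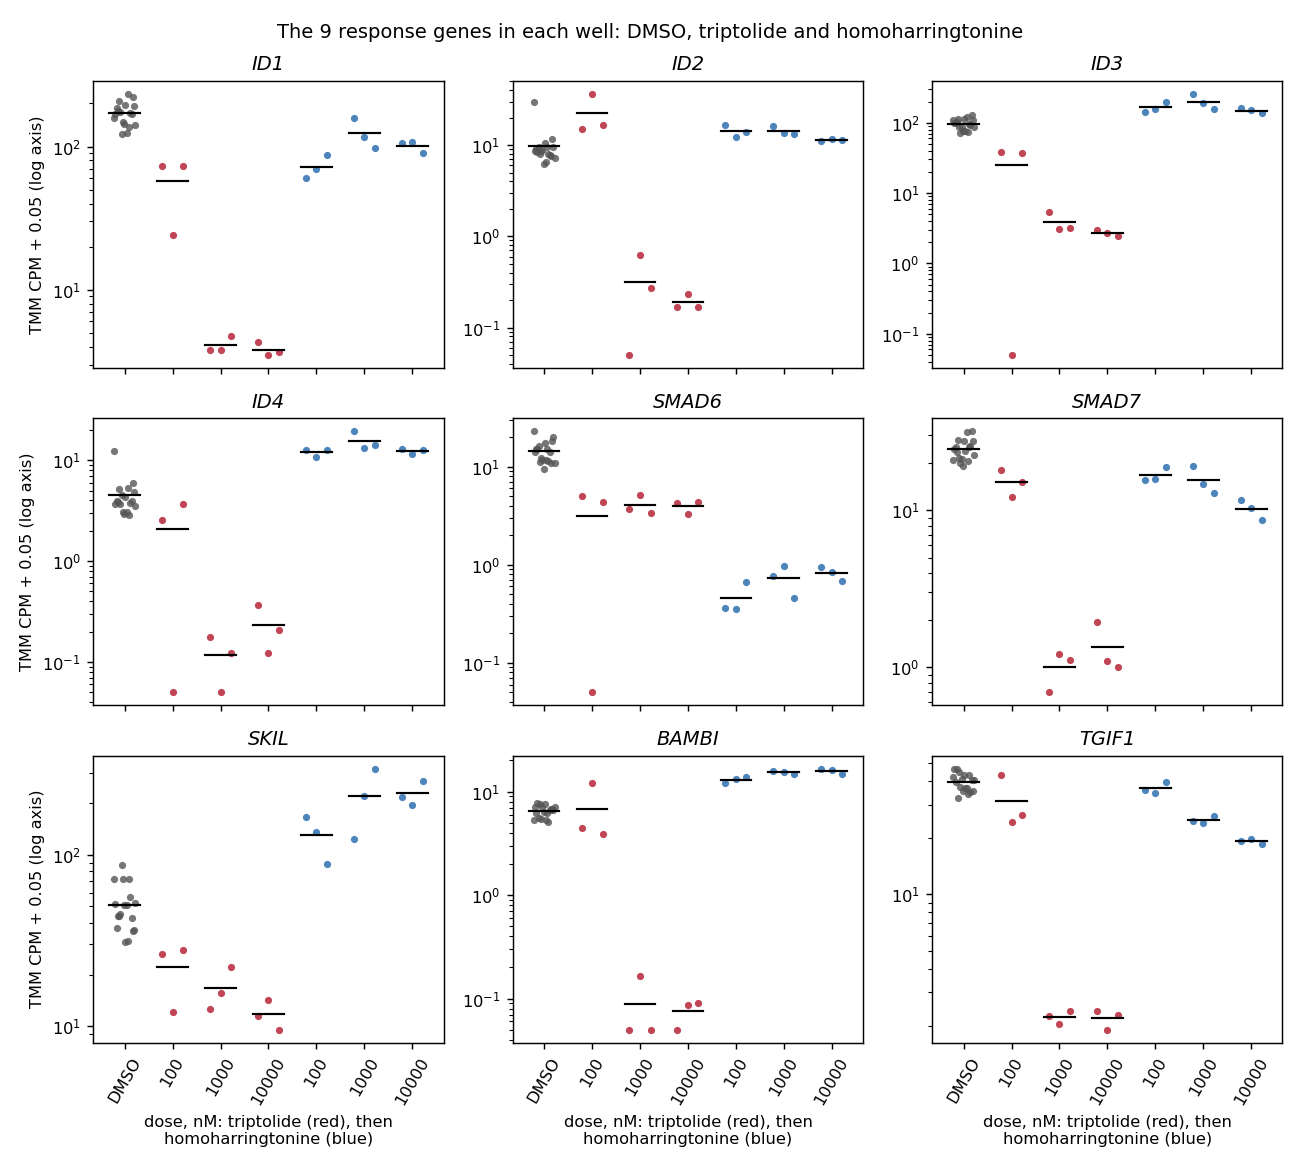
Level of each of the 9 genes in every DMSO, triptolide and homoharringtonine well, as TMM CPM plus 0.05 on a log axis, with the mean of each group as a black line. The triptolide wells at 1000 nM and 10000 nM lie under all DMSO wells in every panel, whereas homoharringtonine wells lie above DMSO for SKIL, BAMBI and ID3 and deepest for SMAD6. Points at 0.05 are libraries with no count, including triptolide 100 nM replicate 2 with 70767 counts.

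Homoharringtonine split the members. ID4, SKIL and BAMBI were raised at all 3 doses, ID3 passed the fold threshold at 1000 nM, and SMAD6 was lowered at all 3 doses. At 100 nM, 3 of 9 were raised against 15.6% of all genes and 2 of 9 lowered (ID1 and SMAD6) against 19.3%. At 1000 nM, 4 of 9 were raised against 21.5% and 1 lowered against 20.9%. At 10000 nM, 3 of 9 were raised against 23.6% and 3 lowered (SMAD6, SMAD7 and TGIF1) against 23.4%. The member medians of log2(Fold Change) were 0.72, 0.69 and 0.35 beside -0.03, -0.01 and -0.05 over all genes.

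SMAD6, the inhibitor of BMP receptors, fell further than any other member with homoharringtonine. Its wells were at 0.310, 0.305 and 0.617 CPM at 100 nM, at 0.716, 0.915 and 0.405 CPM at 1000 nM and at 0.906, 0.787 and 0.627 CPM at 10000 nM. All 9 were more than 10 times under the lowest DMSO well, 9.43 CPM. The log2(Fold Change) was -5.06 ± 0.32 (adjusted p = 1.1e-12), -4.37 ± 0.31 (6.5e-12) and -4.19 ± 0.26 (6.7e-13), and its slope over dose, 0.41 ± 0.20 per 10-fold dose, did not pass the test (0.11).

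BAMBI and SKIL, which fell with triptolide, rose. BAMBI was at 12.1, 13.1 and 13.8 CPM at 100 nM, at 15.8, 15.5 and 14.9 CPM at 1000 nM and at 16.6, 16.1 and 14.6 CPM at 10000 nM, all above the highest DMSO well. Its log2(Fold Change) was 1.02 ± 0.11 (2.0e-08), 1.25 ± 0.11 (3.0e-10) and 1.26 ± 0.11 (2.0e-10). The value at 100 nM sat on the fold threshold and was 0.99 with DESeq2 and without the libraries under 10 M, and with mitochondrial scaling the values at 100 nM and 10000 nM were 0.90 and 0.96. SKIL was at 167, 137 and 88.1 CPM at 100 nM, at 124, 220 and 318 CPM at 1000 nM and at 219, 196 and 269 CPM at 10000 nM, again above every DMSO well, with log2(Fold Change) values of 1.40 ± 0.22 (4.2e-06), 2.13 ± 0.22 (6.6e-09) and 2.16 ± 0.20 (8.1e-10).

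The ID genes did not move as one. ID4 rose at each dose, with wells at 12.6, 10.7 and 12.6 CPM, then 19.2, 13.3 and 13.95 CPM, then 12.9, 11.6 and 12.7 CPM, and log2(Fold Change) values of 1.59 ± 0.19 (1.3e-07), 1.94 ± 0.20 (4.9e-09) and 1.60 ± 0.18 (3.2e-08). Its wells were above all DMSO wells apart from DMSO replicate 10 at 12.3 CPM, which exceeded 1 well at 100 nM and 1 at 10000 nM. ID3 was at 142, 159 and 199 CPM, at 255, 187 and 158 CPM and at 161, 149 and 137 CPM, all above the highest DMSO well, and it rose by 0.80 ± 0.15 (5.0e-05), 1.05 ± 0.15 (1.8e-06) and 0.60 ± 0.14 (0.00042) on the log2 scale. Without the 1000 nM well at 255 CPM, replicate 1, the value at that dose was 0.82.

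ID2 rose by less, with wells between 12.3 and 16.6 CPM at 100 nM and between 13.1 and 16.3 CPM at 1000 nM. Its log2(Fold Change) was 0.72 ± 0.21 (0.0039) and 0.69 ± 0.21 (0.0052) there, and 0.35 ± 0.20 at 10000 nM, which did not pass the test (0.12). ID1 went the other way: its wells were at 60.1, 69.8 and 87.1 CPM at 100 nM, at 159, 116 and 97.9 CPM at 1000 nM and at 106, 108 and 90.8 CPM at 10000 nM. It fell by 1.23 ± 0.18 (2.9e-06), 0.46 ± 0.18 (0.026) and 0.78 ± 0.16 (0.00013) on the log2 scale, and at 1000 nM 1 of 3 wells stayed within the DMSO range.

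SMAD7 and TGIF1 were the members with a slope over homoharringtonine dose. SMAD7 was at 15.5, 15.8 and 18.8 CPM at 100 nM, at 19.2, 14.7 and 12.9 CPM at 1000 nM and at 11.5, 10.3 and 8.63 CPM at 10000 nM, with log2(Fold Change) values of -0.55 ± 0.15 (0.0026), -0.66 ± 0.16 (0.00079) and -1.31 ± 0.15 (2.9e-08). TGIF1 was at 35.7, 34.4 and 39.4 CPM, within the DMSO range, then at 24.6, 23.8 and 25.9 CPM and at 19.2, 19.5 and 18.4 CPM, below it. Its log2(Fold Change) was -0.09 ± 0.10 (0.42), -0.67 ± 0.10 (2.3e-06) and -1.08 ± 0.11 (2.2e-09).

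Library composition moved with some of these values. The GC slope of a library was the change in its own log2 TPM level across genes per 10 points of transcript GC content. It ran from -0.164 to 0.424 over DMSO wells and from -0.324 to -0.222 over the homoharringtonine wells at 10000 nM. Transcripts of SKIL have 38.7% GC and those of ID1, ID3, SMAD7 and SMAD6 58.2%, 56.5%, 56.4% and 60.7%. With the slope as a covariate, an alternative added after the data were seen, the log2(Fold Change) at 10000 nM homoharringtonine was 1.28 for SKIL, 1.13 for ID3, -3.69 for SMAD6 and -0.84 for SMAD7, each with an adjusted p under 0.05. The fall of ID1 no longer passed there, at -0.22 (0.089), nor at 1000 nM, at -0.16 (0.13), and was -0.97 at 100 nM (2.1e-09), while ID2 passed at 10000 nM with 0.66 (0.0093). The part of composition in these differences was not tested further.

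The direct comparison of both inhibitors at equal doses gave the opposite order for SMAD6 and for the other members. SMAD6 was higher with triptolide than with homoharringtonine, by 3.53 ± 0.40 (adjusted p = 7.4e-07), 2.54 ± 0.43 (8.7e-04) and 2.41 ± 0.21 (8.8e-07) on the log2 scale at 100 nM, 1000 nM and 10000 nM. With mitochondrial scaling the value at 10000 nM became -0.17 (adjusted p = 0.52) while the median of all genes shifted by -2.58. At 1000 nM it became 0.21 (0.76), and at 100 nM it was 1.85 (3.7e-04). SMAD6 was the member counted as higher at each dose, against 20.5%, 22.6% and 30.2% of all genes. At 1000 nM and 10000 nM all 8 others were lower with triptolide, against 35.9% and 37.9% of all genes, with 10000 nM differences between -2.89 ± 0.23 (SMAD7) and -6.23 ± 0.20 (ID2) among members with more than 3 counts per group. At 100 nM, ID3 (-2.12 ± 0.23), ID4 (-1.95 ± 0.29), SKIL (-2.23 ± 0.25) and BAMBI (-1.55 ± 0.27) were lower with triptolide, against 27.4% of all genes. ID1, ID2, SMAD7 and TGIF1 did not pass the test there, with differences of 0.04 (95% interval -0.36 to 0.44), 0.26 (-0.22 to 0.73), 0.06 (-0.38 to 0.49) and 0.00 (-0.43 to 0.43). With mitochondrial scaling all 4 were lower with triptolide, by values of -1.63, -1.40, -1.61 and -1.65.

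Over dose, 7 of the 8 members that could be fitted had a negative triptolide slope, against 24.7% of all genes with a slope in either direction. The log2 slopes per 10-fold dose were -4.49 ± 0.59 for BAMBI, -3.83 ± 0.44 for ID2, -2.13 ± 0.29 for ID1, -2.04 ± 0.29 for TGIF1, -1.89 ± 0.26 for ID3, -1.87 ± 0.33 for SMAD7 and -0.65 ± 0.14 for SKIL, with adjusted p between 1.1e-04 and 0.0043. SMAD6 had a slope of -0.17 ± 0.18 (adjusted p = 0.51), or -0.66 (0.018) with mitochondrial scaling, and ID4 was removed by the filter on low counts. Most of the change lay between 100 nM and 1000 nM, except for SMAD6 and SKIL. SMAD6 was at -1.59, -1.82 and -1.87 against DMSO at the 3 doses, and SKIL at -0.91, -1.57 and -2.14. The wells at 1000 nM and 10000 nM overlapped for each of the 9 genes except ID3. With homoharringtonine, SMAD7 (-0.39 ± 0.10, 0.0087) and TGIF1 (-0.50 ± 0.06, 1.5e-04) had a slope, 2 of 9 against 44% of all genes.

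**Figure D2:**
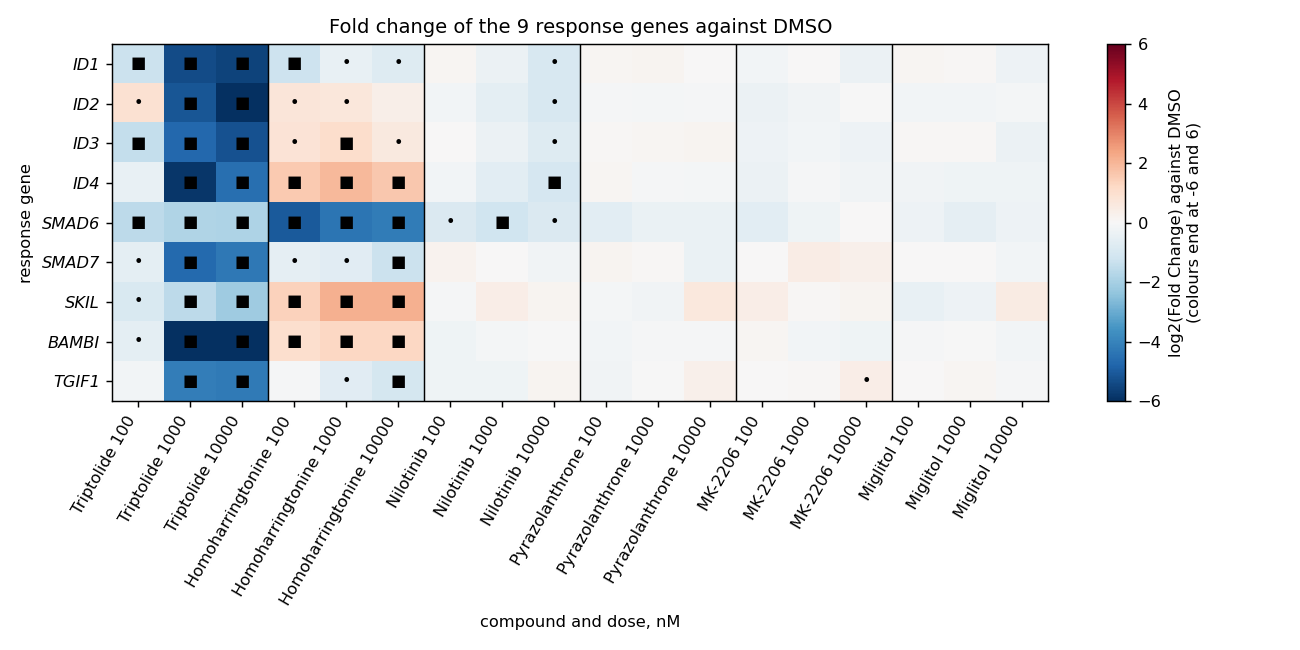
log2(Fold Change) of the 9 genes (rows) against the 18 DMSO wells for each compound and dose in nM (columns), from edgeR with 3 treated wells each. A square marks an adjusted p under 0.05 with a log2(Fold Change) beyond 1 in either direction, and a dot an adjusted p under 0.05 alone. Squares fill the triptolide columns at 1000 nM and 10000 nM, homoharringtonine has both colours, and nilotinib has its marks in ID1 to ID4 and SMAD6.

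With nilotinib at 10000 nM the 4 ID genes and SMAD6 fell. These 5 of 9 members passed an adjusted p of 0.05, as did 14.4% of all genes in either direction, and 1 of 9 (ID4) also passed the fold threshold, as did 3.12% of all genes. ID1 was at 73.9, 89.4 and 102 CPM, ID2 at 3.64, 5.37 and 4.32 CPM, ID3 at 45.4, 62.6 and 61.3 CPM and ID4 at 1.66, 2.09 and 2.21 CPM. All 12 values lay under the lowest DMSO well of their gene. Here and for SMAD6 below, such a separation describes these wells only, with no share over all genes beside it. The 4 ID genes had log2(Fold Change) values of -0.94 ± 0.17 (adjusted p = 0.00032), -0.97 ± 0.24 (0.0062), -0.77 ± 0.16 (0.0017) and -1.01 ± 0.24 (0.0052). SMAD6 was at 5.75, 8.32 and 8.45 CPM, also under all DMSO wells, with -0.88 ± 0.20 (0.0042). Without the libraries under 10 M, ID4 was at -0.98 (0.0015) and no member passed the fold threshold. With mitochondrial scaling the median of all genes moved by -0.69 and the 5 genes were between -1.51 and -1.76.

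SMAD6 passed the test at the lower nilotinib doses too. It was at 5.32, 9.11 and 8.49 CPM at 100 nM (-0.87 ± 0.21, 0.012) and at 4.23, 6.99 and 7.22 CPM at 1000 nM (-1.19 ± 0.23, 0.0024), and each of these wells was under every DMSO well. It was thus 1 of 9 members lowered at 1000 nM, against 1.13% of all genes called there, and none of 9 was called at 100 nM, against 1.48%. On the adjusted p alone it was the 1 member that passed at each of these doses, beside 9.08% and 3.95% of all genes. At 100 nM, DESeq2 likewise called none and 2 members had an unadjusted p under 0.05. Without the 1000 nM well at 4.23 CPM, replicate 1, SMAD6 was at -0.97 (adjusted p = 0.063), with mitochondrial scaling at -1.11 (0.19) and with the replicate number as a block at -1.30 (0.69). At 100 nM mitochondrial scaling gave -0.38 (0.46), and leaving out any 1 of the 100 nM wells gave values of -0.62 or lower that did not pass (adjusted p from 0.052 to 0.08). With pyrazolanthrone, MK-2206 and miglitol the mean of SMAD6 was also under that of DMSO, without passing the test. Its log2(Fold Change) there ran from -0.64 (pyrazolanthrone at 100 nM) to 0.02 (MK-2206 at 10000 nM). At 100 nM pyrazolanthrone and at 1000 nM miglitol (-0.52), 2 of 3 SMAD6 wells lay under every DMSO well. The ID genes did not pass at 100 nM or 1000 nM nilotinib, where their wells overlapped DMSO. The slopes over nilotinib dose were negative for all 4 ID genes, between -0.41 and -0.56 per 10-fold dose, and none of the 9 members passed in edgeR (5 with an unadjusted p under 0.05, 3 called by DESeq2), against 3.09% of all genes.

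**Figure D3:**
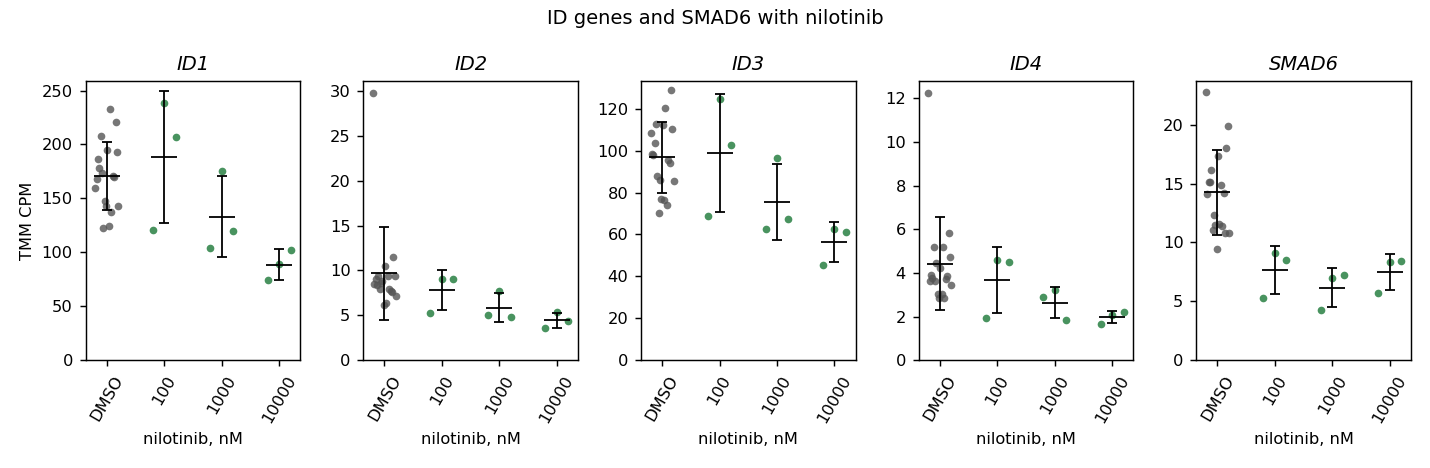
TMM CPM of ID1, ID2, ID3, ID4 and SMAD6 in each DMSO well and each nilotinib well by dose, with the mean and SD of each group in black. The 3 wells at 10000 nM lie under all 18 DMSO wells for each gene, and for SMAD6 so do the wells at 100 nM and 1000 nM.

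With the GC slope as a covariate, the values at 10000 nM nilotinib were -0.73 for ID1, -0.84 for ID2, -0.56 for ID3, -0.82 for ID4 and -0.68 for SMAD6, all with an adjusted p under 0.05, so that none was past the fold threshold. Without replicate 1, the lowest well for each of the 5 genes, ID4 was at -0.88 (adjusted p = 0.072), ID2 at -0.84 (0.085) and SMAD6 at -0.71 (0.079), while ID1 at -0.82 (0.011) and ID3 at -0.62 (0.045) still passed. The other 4 members stayed close to DMSO at 10000 nM, with log2(Fold Change) values of -0.19 for SMAD7, 0.15 for SKIL, -0.04 for BAMBI and 0.15 for TGIF1, none of which passed the test.

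For the other 3 compounds no member reached the fold threshold. With MK-2206 at 10000 nM TGIF1 rose to 51.1, 49.8 and 54.0 CPM, above all DMSO wells (0.39 ± 0.09, adjusted p = 0.018). The other 8 did not pass there, and none of 9 passed at 100 nM or 1000 nM (1 with an unadjusted p under 0.05 at each, none called by DESeq2). The shares of all genes called at 100 nM, 1000 nM and 10000 nM were 0.0054%, 0.286% and 0.711%, those past the adjusted p alone 0.0648%, 1.52% and 3.15%, and 0.028% had a slope over dose, with none of the members among them (2 with an unadjusted p under 0.05, none with DESeq2).

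With pyrazolanthrone no member passed against DMSO in edgeR, while 4.77%, 0% and 7.65% of all genes passed the adjusted p at the 3 doses and 0.923%, 0% and 1.16% the fold threshold too. An unadjusted p under 0.05 was reached by 2, 0 and 3 members. With DESeq2, 1, 0 and 2 members passed the adjusted p and none the fold threshold. SMAD7 and TGIF1 nevertheless had slopes over dose in opposite directions, -0.28 ± 0.08 (adjusted p = 0.032) and 0.24 ± 0.06 (0.027) per 10-fold dose, 2 of 9 against 18.6% of all genes. SMAD7 went from 25.7, 29.1 and 25.8 CPM at 100 nM to 20.7, 20.1 and 17.2 CPM at 10000 nM, and TGIF1 from 37.1 and 31.9 CPM in replicates 1 and 3, with replicate 2 at 30 CPM, to 46.0, 48.7 and 52.8 CPM. The wells of the lowest and highest dose did not overlap for either gene, which describes these wells only, with no share over all genes beside it. Leaving out any 1 well at 10000 nM, or replicate 2 or 3 at 100 nM, left neither slope past the test, with adjusted p between 0.077 and 0.11 for SMAD7 and between 0.072 and 0.098 for TGIF1, and mitochondrial scaling turned the TGIF1 slope to -0.052.

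With miglitol no gene passed the adjusted p at any dose (0% in edgeR, with DESeq2 calling 1, 8 and 3 genes, and 944, 1563 and 4195 genes at an unadjusted p under 0.05), and no member did (0, 1 and 2 members at an unadjusted p under 0.05, none by DESeq2). SKIL had a slope of 0.48 ± 0.11 per 10-fold dose (adjusted p = 0.031), 1 of 9 members against 15.9% of all genes. It was at 38.9, 37.7 and 34.6 CPM at 100 nM and at 74.7, 79.1 and 66.0 CPM at 10000 nM, and both sets lay within the DMSO range. The GC slopes of these libraries ran at 100 nM from 0.151 to 0.408, at 10000 nM between -0.131 and -0.0395, and with that slope as a covariate the SKIL value at 10000 nM against DMSO was 0.02 in place of 0.51. The part of composition in the dose slope was not tested. Without any 1 well at 10000 nM, or replicate 2 or 3 at 100 nM, the slope was between 0.42 and 0.50 and did not pass (adjusted p from 0.073 to 0.14). With mitochondrial scaling it was 0.049 (0.69).

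Other genes of the pathway, 59 in all, were listed by role, and 55 of them passed the filter on low counts. At 10000 nM, 6 were raised and 28 lowered by triptolide, 10 were raised and 20 lowered by homoharringtonine. Over all genes tested the shares were 16.2% raised and 30.2% lowered by triptolide, and 23.6% raised and 23.4% lowered by homoharringtonine. The counts by role that follow are small and are read against these shares, with nothing called particular to a role. Over the list, log2(Fold Change) had medians of -1.06 and -0.22, beside -0.17 and -0.05 over all genes. Nilotinib raised 5 and lowered 2, pyrazolanthrone raised 1 and lowered 1, MK-2206 raised 3 and miglitol moved none. Of all genes tested, 3.12%, 1.16%, 0.711% and 0% were called in either direction with these compounds at 10000 nM.

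Among the 10 ligands, BMP2 took opposite directions. It was at 5.93 ± 0.651 CPM (SD, n = 18) with DMSO, at 0.324 ± 0.267 CPM (n = 3) with triptolide (log2(Fold Change) -4.24 ± 0.26) and at 36.9 ± 0.896 CPM with homoharringtonine (2.60 ± 0.08). BMP4 fell with triptolide from 59.8 to 8.15 CPM (-2.93 ± 0.13). TGFB2 also differed in sign, from 23.8 CPM with DMSO to 59.4 CPM with triptolide (1.26 ± 0.19) and 4.43 CPM with homoharringtonine (-2.47 ± 0.26), and mitochondrial scaling turned the triptolide value to -1.47. At 100 nM triptolide TGFB2 was lowered (-1.87, adjusted p = 1.5e-05). BMP7 fell with homoharringtonine from 18.5 to 3.06 CPM (-2.61 ± 0.13). In total triptolide raised 1 and lowered 2 ligands, and homoharringtonine raised 1 and lowered 7. Among these 7, INHBA (-1.77) was raised at 100 nM homoharringtonine (3.80, adjusted p = 8.8e-19) and was at -0.31 (0.075) at 1000 nM.

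Of the 12 receptors and coreceptors tested, triptolide lowered 6 and raised none, and homoharringtonine lowered 3 and raised 1. ACVR2A, a receptor for activins and BMPs, fell with triptolide from 9.22 to 0.295 CPM (-5.00 ± 0.40) and rose with homoharringtonine to 40.3 CPM (2.10 ± 0.20). The BMP coreceptor RGMB fell with triptolide from 31.9 to 2.76 CPM (-3.60 ± 0.16). The coreceptor ENG fell with homoharringtonine from 32.3 to 1.28 CPM (-4.66 ± 0.20), and TGFBR3 from 16.6 to 5.41 CPM (-1.67 ± 0.12).

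Of the 6 signalling SMADs, triptolide lowered 3, among them SMAD4 from 37.2 to 7.92 CPM (-2.28 ± 0.14) and SMAD1 from 12.2 to 2.96 CPM (-2.12 ± 0.16). Homoharringtonine raised SMAD4 to 84.0 CPM (1.15 ± 0.10) and lowered SMAD3 from 128 to 29.0 CPM (-2.17 ± 0.09). Of 10 further inhibitors, triptolide raised 3 and lowered 6, and homoharringtonine raised 2 and lowered 3. FSTL3, which binds activins, rose with both, from 109 to 553 CPM (2.30 ± 0.13) and to 231 CPM (1.06 ± 0.14), and the BMP antagonist NOG fell with both, from 18.1 to 0.705 CPM (-4.75 ± 0.24) and to 3.97 CPM (-2.25 ± 0.18). The BMP antagonist CHRD rose with triptolide from 4.65 to 14.2 CPM (1.55 ± 0.19), and SKI, a corepressor related to SKIL, fell from 91.2 to 7.18 CPM (-3.72 ± 0.14). With mitochondrial scaling FSTL3 and CHRD were at -0.52 and -1.28 with triptolide. SMURF1, a ubiquitin ligase for SMADs and receptors, rose with homoharringtonine from 64.9 to 170 CPM (1.36 ± 0.07), and LDLRAD4 fell from 6.41 to 1.18 CPM (-2.49 ± 0.29).

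Of the 14 other targets tested, triptolide lowered 11 and raised 2, with a median log2(Fold Change) of -3.64, and homoharringtonine raised 5 and lowered 4, with a median of 0.25. SNAI1 fell with triptolide from 14.6 to 0.102 CPM (-7.11 ± 0.34) and JUNB from 22.4 to 0.318 CPM (-6.09 ± 0.37). At 100 nM triptolide SNAI1 was raised (1.64, adjusted p = 2.5e-08) and JUNB was at 0.67 (0.015), on the TMM scale. JUNB rose with homoharringtonine to 244 CPM (3.50 ± 0.16), and KLF10 rose from 87.5 to 843 CPM (3.25 ± 0.08). TAGLN, an actin-binding protein induced by TGF-beta in many cells, rose with triptolide from 90.2 to 385 CPM (2.04 ± 0.12), and LTBP2, a matrix protein, from 340 to 872 CPM (1.31 ± 0.10), and they were at -0.78 and -1.48 with mitochondrial scaling. LTBP2 fell with homoharringtonine to 40.8 CPM (-3.09 ± 0.14), and ATOH8 from 0.385 to 0.0706 CPM (-2.44 ± 0.47), with DMSO wells reaching down to 0 CPM.

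Of the 3 E proteins that ID proteins bind, homoharringtonine lowered TCF3 from 172 to 44.03 CPM (-1.99 ± 0.14) and TCF4 from 22.2 to 7.68 CPM (-1.54 ± 0.13), and triptolide at 10000 nM moved none past the threshold. Nilotinib lowered ATOH8, a BMP target, to 0.0787 CPM (-2.32 ± 0.44) and raised the activin subunit INHBA from 26.2 to 84.2 CPM (1.69 ± 0.13), BHLHE40 from 63.4 to 189 CPM (1.58 ± 0.09) and CCN2 from 193 to 514 CPM (1.41 ± 0.17). CCN2, which codes for a matrix-associated growth factor, was also raised by pyrazolanthrone, to 446 CPM (1.17 ± 0.18), and by MK-2206, to 534 CPM (1.46 ± 0.17). MK-2206 further raised PMEPA1, a TGF-beta feedback inhibitor, from 137 to 305 CPM (1.14 ± 0.09) and BHLHE40 to 140 CPM (1.14 ± 0.09), and pyrazolanthrone lowered FSTL3 to 44.5 CPM (-1.32 ± 0.17). All values named for the pathway list at 10000 nM had an adjusted p under 0.05. With mitochondrial scaling, PMEPA1 (0.87, 0.086) and BHLHE40 (0.88, 0.096) with MK-2206 no longer passed, and BHLHE40 and CCN2 with nilotinib, CCN2 with pyrazolanthrone and SMAD4 and FSTL3 with homoharringtonine stayed short of the fold threshold.

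**Figure D4:**
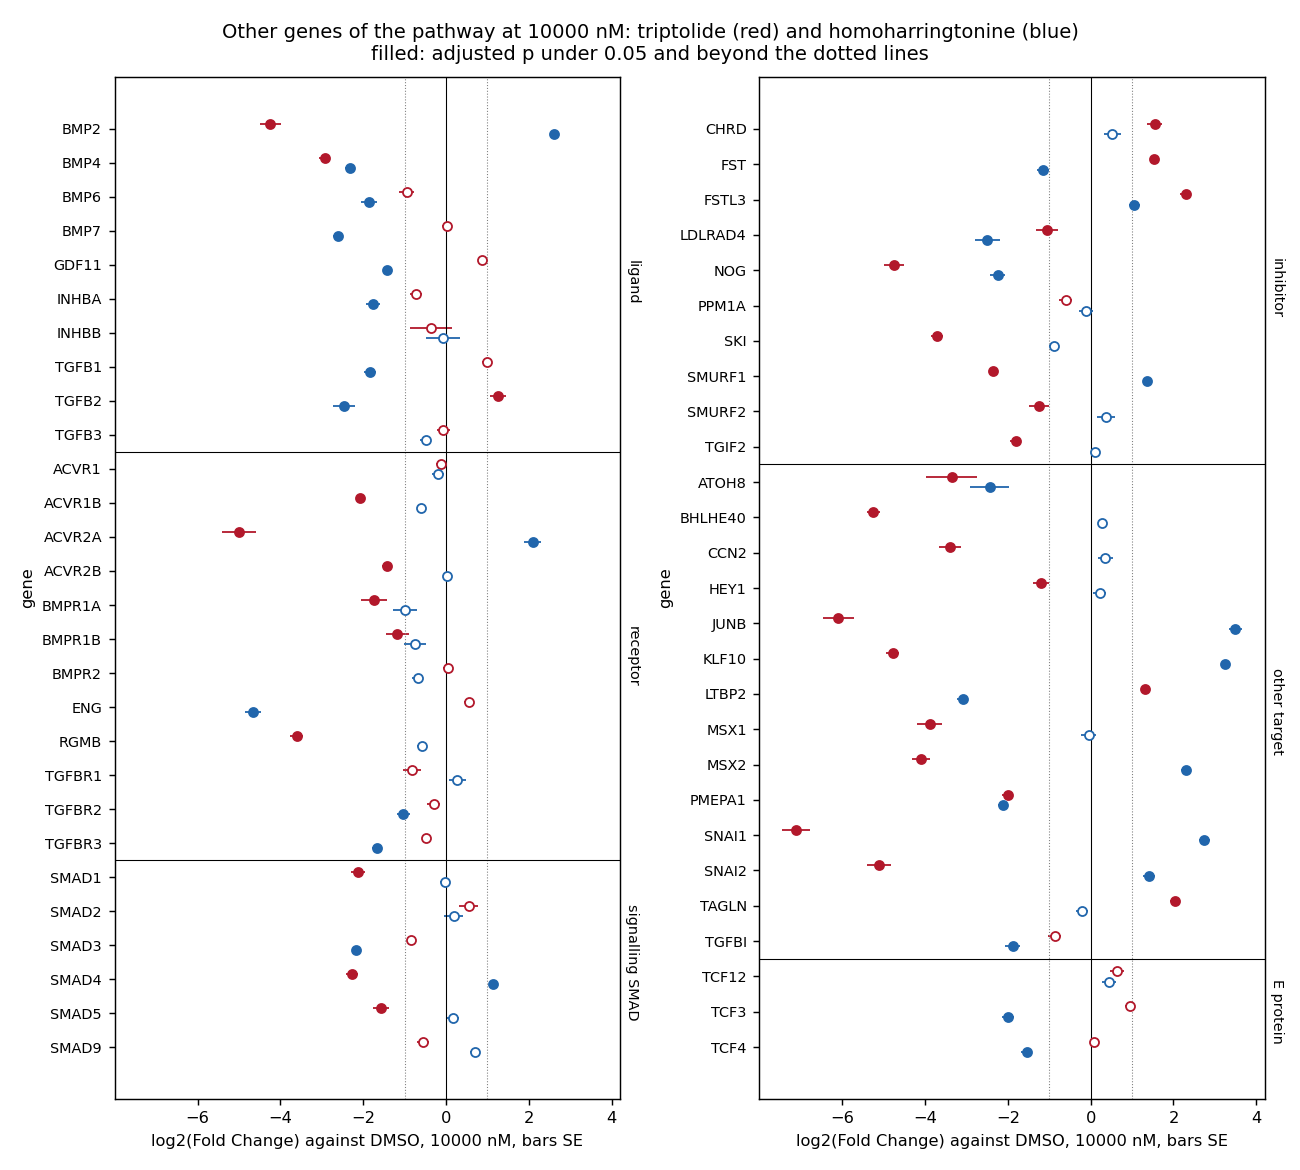
log2(Fold Change) against DMSO with its SE for the 55 listed pathway genes at 10000 nM, by role, with triptolide in red and homoharringtonine in blue. Filled points passed both thresholds. BMP2, ACVR2A, SMAD4, JUNB, KLF10 and SNAI1 lie on opposite sides for the 2 compounds, and BMP4 and NOG to the left for both.

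Across the 19 groups, SMAD6 was the member with the least in common with the others. On log2(CPM + 1) group means, a description over 19 points that share the DMSO wells and in which the triptolide doses weigh most, Pearson's r was 0.97 between SMAD7 and TGIF1, 0.96 between ID1 and SMAD7 and 0.92 between ID1 and ID3. SMAD6 had r between -0.41 and 0.42 with the other 8. Ordered by mean, the highest groups were triptolide 100 nM for ID2, homoharringtonine for ID3, ID4, SKIL and BAMBI, MK-2206 for SMAD7 and TGIF1, pyrazolanthrone for ID1 and DMSO for SMAD6. The lowest was triptolide at 1000 nM or 10000 nM for all but SMAD6, which was lowest at 100 nM homoharringtonine. Of the 18 steps between neighbours in that order, between 0 (SMAD6) and 3 (ID3, SMAD7 and BAMBI) separated all wells of one group from all wells of the next.

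The genes most like each member were looked for among 10774 protein-coding genes whose highest group mean was at least 10 CPM. For BAMBI they were KCTD10, MFAP1 and MAD2L1BP (r = 0.996 for each), for ID1 CCNF, POM121 and INCENP (0.992 to 0.990), for ID3 SART3, MEPCE and BCOR (0.993 to 0.989) and for SMAD7 UBE2O, ZBTB45 and PRAG1 (0.994 to 0.992). SMAD6 had its nearest neighbours in KIF13A, MARCHF8 and PLCXD1 (0.974 to 0.969), ID2 in TAF3, TNRC6C and ZSCAN22 (0.982 to 0.968) and ID4 in CLK3, GPATCH8 and FARP2 (0.984 to 0.981). For SKIL they were C5orf34, ZNF181 and RAB5A (0.990 to 0.987) and for TGIF1 FAAP24, TRIM27 and CCDC127 (0.986 to 0.983).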

How the data were processed

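Population RNA-seq files of 72 U2OS wells were used, with groups, doses and replicate numbers taken from the sample labels. The authors made stranded poly(A) TruSeq libraries and ran an RSEM workflow, and the submitters' processing notes also name HTSeq, DESeq2 and GRCh38; versions, and whether counting used strand, are not given in the sources used here. The deposited values named expected counts are reads per gene estimated by RSEM, without normalization. The deposited TPM values were scaled by the authors to transcript length and library, and the deposited FPKM values to length and mapped reads. Counts assigned between near-identical sequences are estimates.

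Symbols and positions came from GENCODE release 44 (56104 of 60371 identifiers matched), promoters from RefSeq. The members and the pathway lists were chosen with earlier results of these data known, and 1 listed gene is not reported here. Expected counts were rounded and tested with edgeR 4.0.16 (R 4.3.3), using filterByExpr, TMM scaling, glmQLFit, glmQLFTest and Benjamini-Hochberg adjustment over all genes tested (18410 to 19329 against DMSO). Each compound and dose was compared with all 18 DMSO wells, triptolide with homoharringtonine at each dose, and slopes on log10 dose were fitted over the 9 wells of a compound, called by the adjusted p alone. SE values are the log2(Fold Change) divided by the square root of F. Levels are CPM on TMM-scaled library sizes over all wells. The labels do not say that wells came from separate cultures, so p-values measure the spread between these wells. No 2 wells of a group had identical counts. The scripts were tested on simulated counts with known changes.

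Alternatives were DESeq2 1.42.0, other scalings, other filters, leaving out shallow libraries or each treated replicate, the replicate number as a block and, added after the data were seen, the GC slope. Named were all members, up to 2 rises and 2 falls per role for triptolide and homoharringtonine at 10000 nM, up to 4 genes called for each other compound, and the 3 genes most like each member.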

Additional observations from a re-analysis of the deposited data

Results flagged for a closer look

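ID2 with triptolide changed direction between doses: its log2(Fold Change) against DMSO was 0.92 at 100 nM and -5.97 at 10000 nM, and the slope was -3.83 per 10-fold dose (edgeR, adjusted p = 1.1e-04). All 3 wells at 100 nM were above the median DMSO well, and all 6 wells at 1000 nM and 10000 nM were below every DMSO well. The value at 100 nM turned to -0.76 with mitochondrial scaling, as given above.

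With pyrazolanthrone, SMAD7 went from 0.16 at 100 nM to -0.38 at 10000 nM against DMSO (slope -0.28, adjusted p = 0.032), and TGIF1 from -0.22 to 0.29 (slope 0.24, adjusted p = 0.027). Neither end passed the test against DMSO for either gene, and these 2 of 9 members stood beside 18.6% of all genes with a slope. With miglitol, SKIL went from -0.42 to 0.51 (slope 0.48, adjusted p = 0.031), again with neither end past the test. That was 1 of 9 members, beside 15.9% of all genes. Leaving out any 1 well at 10000 nM left none of the slopes of SMAD7, TGIF1 and SKIL past the test. With mitochondrial scaling the slope of TGIF1 was -0.052 and that of SKIL 0.049.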

How the results depend on the processing

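The shallow libraries triptolide 100 nM replicate 2 and DMSO replicate 10 limit the comparison at 100 nM triptolide. This concerns ID2, ID4, SMAD6, SMAD7, SKIL, BAMBI and TGIF1. At higher doses 1 to 4 counts in all limit BAMBI and ID4. Counts here are of member and dose pairs out of 27 per compound. Triptolide lowered 21 (26 with mitochondrial scaling, 11 with at least 10 counts in every well, a filter that left 11 to test) and raised 0, or 1 (ID2) without replicate 1. Homoharringtonine raised 10 (9 to 10 without a replicate, 4 with that filter) and lowered 6. Nilotinib moved 2 (0 to 3 without a replicate, 5 with mitochondrial scaling, 1 with the filter and 1 without libraries under 10 M), and the SMAD6 call at 1000 nM is lost among the 5. Triptolide was higher than homoharringtonine in 3 (1 with mitochondrial scaling) and lower in 20 (9 with the filter).

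Of the pathway list over 3 doses, triptolide raised 18 (9 with library size only, 0 with mitochondrial scaling, 7 with the filter) and lowered 77 (154 with mitochondrial scaling, 31 with the filter). Homoharringtonine raised 32 (18 with the filter) and lowered 50 (33 with the filter). Nilotinib moved 12 (31 with mitochondrial scaling, 6 with the filter), and miglitol 0 (1 each with DESeq2, mitochondrial scaling and the GC slope). The cause was not tested where it is not the filter's own construction.

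Of slopes, triptolide had 7 (0 with the filter, which left no member to test), homoharringtonine 2 (4 with library size only, 1 with mitochondrial scaling), nilotinib 0 (0 to 4 without a replicate, 3 with DESeq2, 7 with mitochondrial scaling), pyrazolanthrone 2 (0 to 3 without a replicate, 1 with mitochondrial scaling) and miglitol 1 (0 to 3 without a replicate, 3 with DESeq2, 8 with mitochondrial scaling, which are the other 8 members since SKIL is lost, and 2 with the filter).

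With mitochondrial scaling the sign also turned for the slopes of BAMBI with nilotinib (-0.48), TGIF1 with pyrazolanthrone (-0.052) and ID2 with miglitol (-0.42), for triptolide against homoharringtonine in ID1 (-1.63), ID2 (-1.40) and SMAD7 (-1.61) at 100 nM and SMAD6 (-0.17) at 10000 nM, and for TGFB2 (-1.47), FSTL3 (-0.52), CHRD (-1.28), TAGLN (-0.78) and LTBP2 (-1.48) with triptolide. In DMSO, FPKM in place of TPM gave 220 for ID1, 122 for ID3, 49.6 for TGIF1, 13.9 for SMAD7, 4.21 for SMAD6 and 4.09 for BAMBI.

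Wells share replicate numbers by label only: same-numbered wells deviated together with a mean r of -0.0499 against DMSO, 0.0215 between the 2 inhibitors and 0.0245 between doses, and in 0 comparisons was every pair over 0.1. The replicate block, with DMSO wells 1 to 3, moved member calls to 22 lowered for triptolide, 8 raised for homoharringtonine, 3 for nilotinib (ID1, ID2 and ID4 at 10000 nM, with SMAD6 at 1000 nM lost) and 1 (SKIL) for pyrazolanthrone, pathway calls to 8 for nilotinib and 1 for miglitol, and member slopes to 3 for nilotinib and 3 for pyrazolanthrone (SKIL at 0.36 added).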
